A study of Mus musculus with 10 samples.

Results

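The genes described here encode the cyclins, cyclin-dependent kinases (CDKs) and E2F factors of the G1/S transition and the proteins that license, unwind and copy replication origins, measured by RNA-seq in mouse embryonic stem cells. A list of 55 gene symbols defined them, and a row of the deposited table of normalised counts was taken where 1 of its comma-separated names was a listed symbol. Rows were found for 53 of the 55 genes among the 49624 named features of the table, and Cdt1 and Gins2 are not analysed here. All 53 reached a value of 10 in at least 2 libraries, as did 16056 features in all. They were set apart by role into 11 cyclins, CDKs and E2F factors, 14 origin licensing genes, 5 helicase activation genes, 10 polymerase subunits, 6 clamp and clamp loader genes, and 7 genes of Okazaki fragment joining, single-strand binding and chromatin assembly. Some rows merge a member with other genes, so that their reads cannot be told apart. Orc5 shares its row with Gm15421, Mcm7 with Mir25 and Mir93, and Pole2 with Dnaaf2, Rpl36al, AC099934.3 and AC099934.7. The main row of Rpa1 also names AL603834.1 and was used here, a smaller row names Rpa1 alone, and 2 rows named Prim2 were summed.

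In G1, D-type cyclins activate Cdk4 and Cdk6, which phosphorylate the retinoblastoma protein and so release E2F factors, and E-type cyclins with Cdk2 carry the cell into S phase. Before S phase, the origin recognition complex and Cdc6 load the Mcm2-7 helicase onto DNA. In S phase Cdc45 and the GINS complex activate the helicase. Polymerases alpha, delta and epsilon copy the strands with the clamp Pcna, which the Rfc complex loads. Many of these genes are known targets of E2F factors, and mouse embryonic stem cells are known for a short G1 phase.

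The study deleted Mof, listed in the table as Kat8, which encodes a histone H4 acetyltransferase, or treated cells with etomoxir, an inhibitor of the uptake of fatty acids into mitochondria for oxidation. KO cells (Mof-KO) and WT cells (wild type) were both C57BL/6J cells from blastocysts, with floxed Mof alleles (Mof fl/fl) and Cre-ER TM, a Cre that tamoxifen activates, and were kept for 3 days with 4-hydroxytamoxifen at 100 nM or with ethanol. The labels do not say which of these groups had which, nor which promoter drives Cre or whether the line is 1 clone. ETO cells were E14tg2a cells, an established mouse embryonic stem cell line, given etomoxir for 4 days. Released cells were E14tg2a cells given etomoxir for 4 days and then kept for another 4 days without it. Control cells were E14tg2a cells given water, with 4 days of treatment and no further days listed. In Released against Control, the release therefore cannot be told apart from time in culture. All 5 groups grew in 2i/LIF medium with PD0325901 at 1 µM, CHIR99021 at 3 µM and LIF at 1000 U/ml, and each has 2 libraries, which the series calls biological duplicates. The Mof and etomoxir experiments used different lines and days of treatment. A difference in level or in change between them therefore cannot be told apart from line, time or experiment.

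Libraries held 10562100 to 13326200 normalised counts, from an estimated 9783470 to 16778400 reads, and 3 reads were worth 2.07 to 4.04 normalised counts. Across genes, the replicates of a group had a Pearson's r of 0.985 to 0.989. Kat8 had 222 and 205 normalised counts in KO and 433 and 357 in WT, a log2 change of -0.88 (SE 0.11, limma adjusted p = 3.64e-05). This value counts the whole gene, and the labels do not say which exons were deleted. All 11 embryonic stem cell markers, among them Pou5f1, Sox2 and Nanog, were present above the 3-read level in every group. Exons of 24 of the 53 members overlap another annotated gene, a protein-coding one for 18 of them, and strand use in counting is not given in the sources used here, so reads of such pairs cannot be told apart.

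In etomoxir-treated cells nearly the whole set fell. Of the 53 members, 49 were lower in ETO than in Control, 2 were higher (Ccnd2 and Pold4) and 2 were not called (Orc4 and Prim2). Here and below a gene counts as called when its p-value, adjusted by Benjamini and Hochberg's method across the 16056 features, is under 0.05 in a limma fit of log2(normalised count + 1), which understates the changes of low genes. Among all tested features 60.8% were called in this comparison, 26.8% as higher and 34% as lower. The median member changed by -0.84 on the log2 scale, against -0.09 for the median of all tested features. Falls of at least 2-fold were called for 16 of the 53 members, beside 1323 of the 16056 features. With 3 other scalings of the libraries, 50 of the 53 changes were below 0 each time and the median was -0.69 to -0.76, while the median of all features shifted by up to 0.15. In each of the 53 the 2 ETO libraries lay apart from the 2 Control libraries, without overlap. How many of all tested features did so was not counted, so this is no result particular to the members.

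At 4 days after removal of the drug most members were above their ETO level. The comparison of Released with ETO called 49 members higher and 1 lower (Pold4), where 57.7% of all tested features were called, 33.1% as higher and 24.6% as lower. The comparison of Released with Control called none higher and 3 lower (Ccnd1, Pola1 and Pola2), where 12.5% of all features were called, 7.03% as higher and 5.51% as lower. This count of 3 depended on the fit: 13 were lower and 2 higher in a fit per experiment, 12 lower with the replicate block, 10 lower without either WT replicate, and 0 lower on FPKM values or without any 1 Released or Control library. Over all features, the fit per experiment called 1685 of 15329 lower and 2028 higher, and the replicate block called 1483 of 16056 lower. Without WT replicate 1 it was 1341 of 15947 lower, and without WT replicate 2 it was 1340 of 15940. At an unadjusted limma p under 0.05, 2 members (E2f2 and Fen1) would be higher and 13 lower in Released than in Control. How many of all features pass that unadjusted threshold was not counted. These comparisons share the ETO or the Control libraries with the first, so their values are set side by side below and are no separate evidence. The median member differed from Control by -0.07 after release, against 0.01 for all features. In summed signal, the members made up 0.563% ± 0.00233 of the library in ETO, 0.87% ± 0.0139 in Released and 0.892% ± 0.00438 in Control (SD, n = 2 each).

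After deletion of Mof the members moved in both directions, and most by little. KO against WT called 16 members higher and 6 lower, which is 30.2% and 11.3% of the 53, beside 24.6% and 13.3% of all tested features (37.9% in either direction). The share of members called was thus near that of all features. The median change was 0.08 for the members and 0.08 for all features. This split depends on how the libraries are scaled: median-of-ratios factors gave 10 higher and 10 lower, and scaling to the total signal without mitochondrial rows (called total signal from here), which shifts the median of all features by -0.15, gave 7 and 16. Among all tested features 64.8% of the calls were higher as deposited, 52.3% with median-of-ratios factors and 37.9% with total signal. Under the 20 alternatives other than a 1.5-fold threshold, 4 members stayed higher (Ccnd1, Cdk4, E2f3 and Orc1) and 3 stayed lower (Gins3, Rfc1 and Pold4). The other calls, each lost under at least 1 alternative, were Ccnd2, Ccne1, Ccne2, Cdk2, Orc2, Orc4, Orc6, Mcm2, Mcm10, Pola1, Rfc4 and Chaf1b as higher and Cdk6, Orc3 and Rfc2 as lower.

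**Figure D1:**
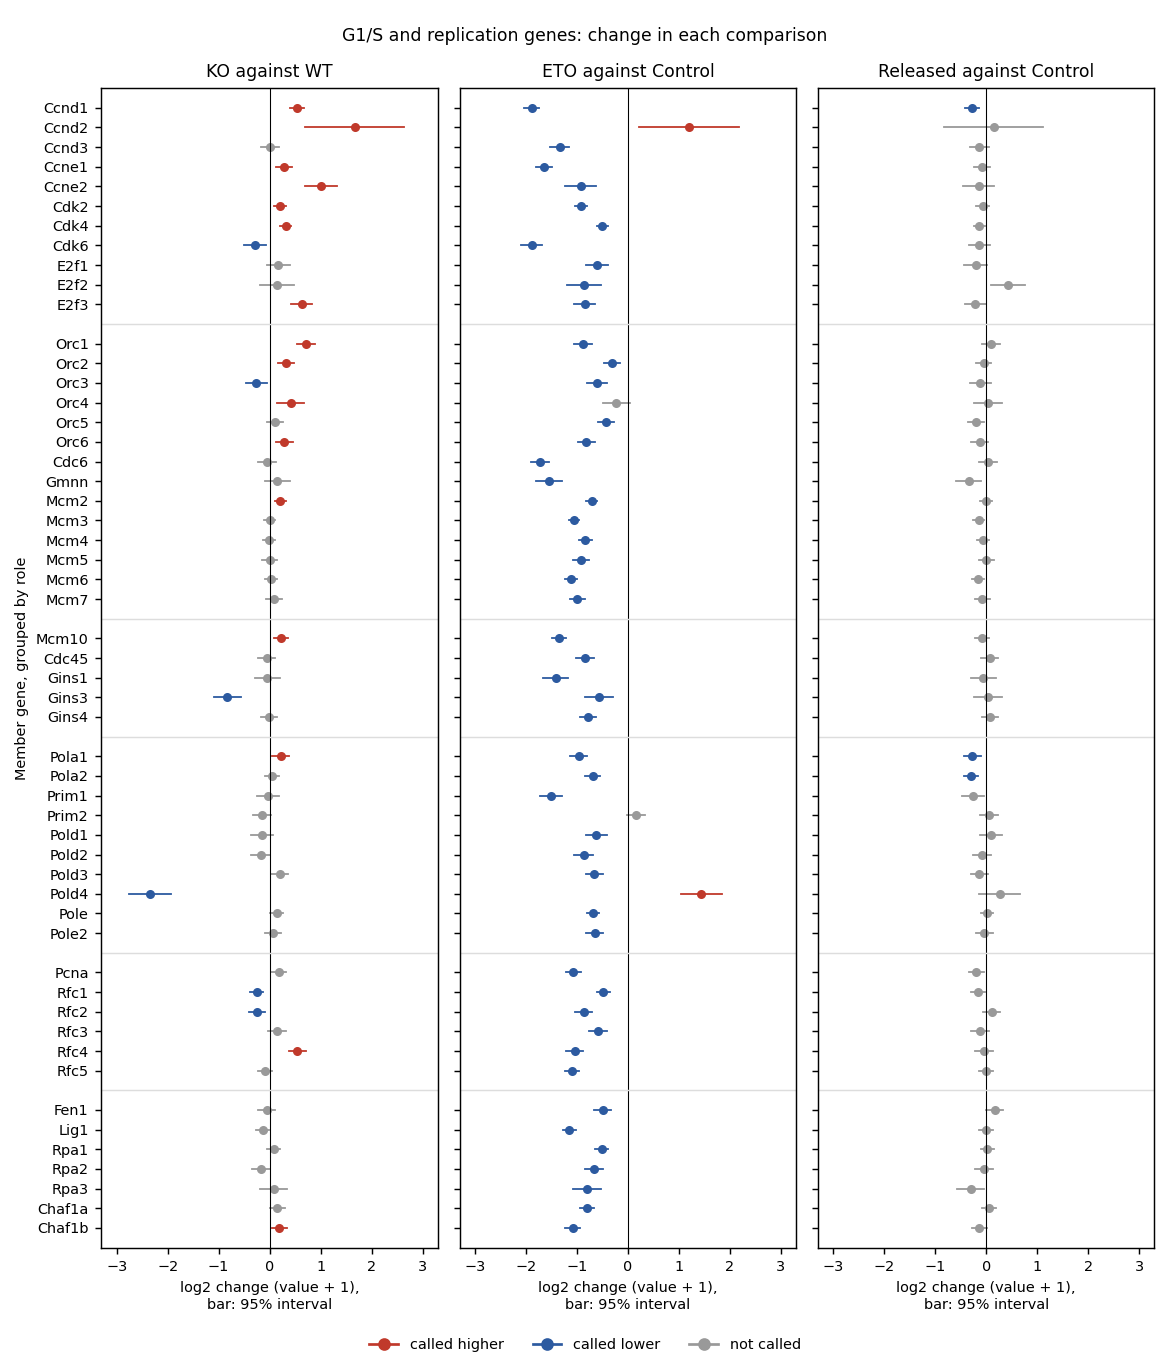
Log2 change of each member, on the log2(normalised count + 1) scale, in KO against WT, ETO against Control and Released against Control, grouped by role. Points are fitted changes, bars are 95% intervals, and colour gives the call. In ETO 49 points lie on the lower side and are called, while Pold4 and Ccnd2 are called higher. KO changes lie on either side of 0, and after release 3 members are called.

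Promoter sequence is shown here for members called in ETO, with and without E2F motifs. These were not picked by size of change alone. The windows, from RefSeq on GRCm38.p6 (the mm10 build), run from 250 bases before to 50 bases after a RefSeq start of the gene. This can differ from the GENCODE start, and 43 of the 53 members had a window. Ccnd1 and Ccnd2 are among those without. Windows were searched on both strands for 4 E2F motifs of 8 bases, TTTCCCGC, TTTCGCGC, TTTGCCGC and TTTGGCGC, which can overlap each other where one strand's motif runs into the other's. At least 1 match was present in 17 of the 43 members (39.5%), against 704 of 27025 genes in the promoter table (2.6%) and 446 of 9875 tested genes that are not members (4.52%). By role the share was 7 of 12 for origin licensing, 4 of 8 for polymerases, 3 of 8 for cyclins, CDKs and E2F factors, 1 of 3 for helicase activation, 1 of 5 for clamp and clamp loader, and 1 of 7 for the remaining group. Among tested genes outside the list, a match was present in 5.82% of those called lower in ETO, 3.52% of those called higher and 4.1% of those not called.

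Cdc6, Mcm3, Mcm5 and Mcm6 are shown as members with matches that fell in ETO, with Cdc6 the one of largest fall and the Mcm genes picked after their values were seen. Capitals mark the E2F matches. With the RefSeq start as 0, the Cdc6 match begins at -138 in chr11:98907901-98908200 (plus strand). The GENCODE gene of Cdc6 begins upstream of this window, at 98907801, so the match lies inside that gene. The matches of Mcm3 begin at 19 and 38 in chr1:20820263-20820562 (minus strand), those of Mcm5 at -153 and -149 in chr8:75109259-75109558 (plus strand), and those of Mcm6 at -110, -106 and -47 in chr1:128359656-128359955 (minus strand).
Cdc6: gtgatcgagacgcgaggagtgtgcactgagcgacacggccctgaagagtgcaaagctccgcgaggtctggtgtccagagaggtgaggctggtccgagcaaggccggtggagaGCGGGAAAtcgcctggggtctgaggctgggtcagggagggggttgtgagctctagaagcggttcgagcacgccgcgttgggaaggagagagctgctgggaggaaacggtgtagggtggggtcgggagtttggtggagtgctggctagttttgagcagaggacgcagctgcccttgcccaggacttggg
Mcm3: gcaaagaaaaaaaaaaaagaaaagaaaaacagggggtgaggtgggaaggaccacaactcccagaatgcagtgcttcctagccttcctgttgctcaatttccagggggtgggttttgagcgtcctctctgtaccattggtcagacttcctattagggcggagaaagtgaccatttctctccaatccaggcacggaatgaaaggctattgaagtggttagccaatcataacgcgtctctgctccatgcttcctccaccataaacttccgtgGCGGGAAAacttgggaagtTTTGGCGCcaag
Mcm5: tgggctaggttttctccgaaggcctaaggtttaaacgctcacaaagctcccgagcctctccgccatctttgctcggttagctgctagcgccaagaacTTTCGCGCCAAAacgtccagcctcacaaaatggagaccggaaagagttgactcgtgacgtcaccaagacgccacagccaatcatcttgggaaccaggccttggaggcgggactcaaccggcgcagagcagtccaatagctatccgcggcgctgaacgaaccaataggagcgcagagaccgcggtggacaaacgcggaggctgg
Mcm6: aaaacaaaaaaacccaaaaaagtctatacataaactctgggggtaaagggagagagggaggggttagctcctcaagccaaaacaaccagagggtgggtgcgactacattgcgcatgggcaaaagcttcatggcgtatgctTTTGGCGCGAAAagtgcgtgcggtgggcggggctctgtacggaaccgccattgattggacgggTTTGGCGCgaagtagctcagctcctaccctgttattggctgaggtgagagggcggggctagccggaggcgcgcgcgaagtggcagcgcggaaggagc
Cdk6 and Ccne1, whose falls in ETO were among the 4 largest, and Pold4, which rose there, have none of the 4 motifs in this window. Their windows are chr5:3343643-3343942 (plus strand), chr7:38107441-38107740 (minus strand) and chr19:4231643-4231942 (plus strand). The Cdk6 window lies inside the GENCODE gene, which begins at 3341485, so the region before that start was not searched.
Cdk6: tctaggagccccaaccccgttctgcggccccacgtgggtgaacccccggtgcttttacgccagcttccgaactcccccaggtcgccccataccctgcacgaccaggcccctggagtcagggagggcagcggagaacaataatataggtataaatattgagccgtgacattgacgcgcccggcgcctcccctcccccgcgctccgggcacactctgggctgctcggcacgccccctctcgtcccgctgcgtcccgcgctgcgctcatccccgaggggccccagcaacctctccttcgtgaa
Ccne1: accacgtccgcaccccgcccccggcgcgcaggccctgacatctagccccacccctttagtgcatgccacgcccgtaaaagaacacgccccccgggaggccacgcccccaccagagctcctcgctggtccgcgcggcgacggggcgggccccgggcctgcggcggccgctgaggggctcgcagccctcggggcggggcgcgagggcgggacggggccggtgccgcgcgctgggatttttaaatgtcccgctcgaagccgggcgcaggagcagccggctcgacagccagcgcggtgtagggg
Pold4: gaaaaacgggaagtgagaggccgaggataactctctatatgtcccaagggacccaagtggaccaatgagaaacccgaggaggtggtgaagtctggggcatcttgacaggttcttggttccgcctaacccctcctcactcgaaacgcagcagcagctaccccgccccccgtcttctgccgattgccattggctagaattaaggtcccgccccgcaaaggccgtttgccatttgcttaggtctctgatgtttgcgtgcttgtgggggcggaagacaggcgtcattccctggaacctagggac
A match is a description of the sequence, and binding was not measured.

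Among the cyclins, CDKs and E2F factors, 10 of 11 fell in ETO and Ccnd2 rose, while in KO 7 rose and 1 fell, beside 24.6% and 13.3% of all tested features. Under all 20 alternatives the KO calls of Ccnd1, Cdk4 and E2f3 held, while the Ccne1 and Cdk2 rises were lost under the 3 other scalings, the Ccnd2 and Ccne2 rises on FPKM values and the Cdk6 fall under 6 alternatives. Ccnd1, the cyclin D1 gene (chr7:144929931-144939925 on mm10, GENCODE M21), had 1224 and 1349 normalised counts in ETO, 3845 and 3995 in Released and 4869 and 4679.9 in Control. Its ETO libraries lay far below those of Released and Control, at a log2 change of -1.89 against Control (SE 0.0654, limma adjusted p = 5.12e-12). Its Released libraries remained below Control by 0.28 (limma adjusted p = 0.00998). That last difference lost its call when any of the 4 Released or Control libraries was left out, with adjusted p of 0.0541 to 0.115. In the Mof experiment Ccnd1 had 2065 and 2182 in KO and 1431 and 1483 in WT, a rise of 0.54 (SE 0.0654, limma adjusted p = 1.95e-05).

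Ccnd3, encoding cyclin D3, had 649 and 661 normalised counts in ETO, 1516 and 1497 in Released and 1653 and 1657 in Control, a change of -1.34 in ETO. In KO it had 2141 and 1998, inside the range of 2294 and 1847 in WT. Its KO change was 0.01 (SE 0.0851, limma adjusted p = 0.964). Ccnd2, encoding cyclin D2, was low throughout and under the 3-read level in WT replicate 2, with 43.1 and 39 normalised counts in ETO, 17.9 and 20.6 in Released, 16 and 18.7 in Control, 18.1 and 13.6 in KO and 8.33 and 1.96 in WT. Its rise in ETO was 1.20 (SE 0.457, limma adjusted p = 0.0328) and its rise in KO was 1.67 (limma adjusted p = 0.00958). Neither held throughout. The ETO call was lost on leaving out any of the 4 ETO or Control libraries (adjusted p 0.0778 to 0.134), and the KO call without KO replicate 1 (1.47, adjusted p = 0.0605) or WT replicate 2 (0.84, adjusted p = 0.126). Exons of Ccnd2 overlap the antisense genes 9330179D12Rik and Gm43126, and its FPKM, which ran between 0.207 and 16.5, did not follow its normalised counts.

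Of the E-type cyclins, which activate Cdk2, Ccne1 had 454 and 449 normalised counts in ETO, 1340.1 and 1332 in Released and 1423 and 1418 in Control. The ETO libraries were at a log2 change of -1.65 (SE 0.074, limma adjusted p = 6.68e-11), and the Released libraries lay just under Control without a call (-0.09, limma adjusted p = 0.484). Ccne2 had 289.7 and 292 in KO and 141 and 147 in WT, a rise of 1.01 (SE 0.145, limma adjusted p = 8.62e-05) that was not called on FPKM values (0.50, adjusted p = 0.205). In ETO it had 180.0 and 161, against 295 and 358 in Control, a fall of 0.93 that was likewise not called on FPKM values (adjusted p = 0.344).

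All 3 kinase genes fell in ETO. Cdk6 had 183 and 212 normalised counts in ETO, 657 and 676 in Released and 753 and 711 in Control, a change of -1.89 (SE 0.0994, limma adjusted p = 3.65e-10). Cdk2, the partner of cyclin E, changed by -0.91. Cdk4, the other partner of the D-type cyclins, had 6065 and 6199 in ETO, 7876 and 7955 in Released and 8639 and 8721 in Control, a change of -0.50 that was the smallest fall of this role. In KO Cdk4 rose instead, with 6895 and 6525 against 5510.2 and 5264 in WT (0.32, SE 0.0519, limma adjusted p = 0.000252).

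The activating E2F genes E2f1, E2f2 and E2f3 changed by -0.61, -0.86 and -0.84 in ETO. E2f3 had 419 and 435 normalised counts in ETO, 649 and 675 in Released and 795 and 739 in Control. In KO, with 545 and 529 against 317 and 379.9 in WT, it rose by 0.63 (SE 0.0958, limma adjusted p = 0.000136), while E2f1 (0.17) and E2f2 (0.15) were not called. E2f2 was the lowest of these genes in every group, between 70.6 and 185, and its fall in ETO was not called on FPKM values (-0.88, adjusted p = 0.0826).

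Levels of different genes were compared as the deposited FPKM, which takes length into account. It is not the normalised count over 1 fixed length per gene, since their ratio varied between libraries. Mcm2 in KO, for example, had 272 and 213 FPKM beside 7253 and 7001 normalised counts. Cdk4 stood at 868 and 925 FPKM in ETO and 1302 and 1297 in Control, far above Cdk2 at 68.1 and 72.1 in ETO and 127 and 125 in Control, and Cdk6 at 1.71 and 2.42 in ETO and 6.51 and 5.96 in Control. Ccnd1 and Ccnd3 were at like levels in Control, 131 and 121 FPKM for Ccnd1 beside 143 and 131 for Ccnd3. In ETO Ccnd3, at 55.9 and 67.1 FPKM, lay above Ccnd1, at 37.4 and 40.9. The order Ccnd3 over Ccnd1 also held in KO (150.2 and 116 for Ccnd3, 55.8 and 64.3 for Ccnd1) and in WT (168 and 119.8 for Ccnd3, 39.1 and 37.5 for Ccnd1).

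**Figure D2:**
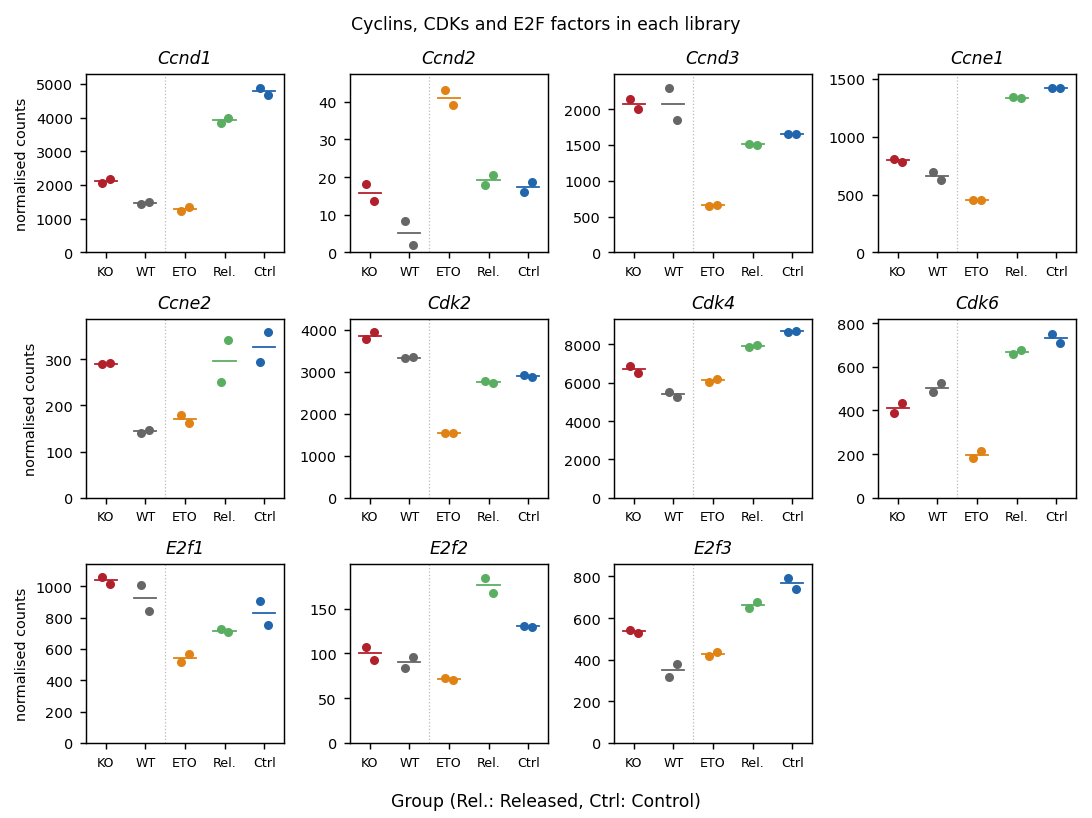
Normalised counts of the 11 cyclin, CDK and E2F genes in each library, with group means as lines and groups in the order KO, WT, ETO, Released and Control. Each panel has its own vertical axis from 0. Ccnd1 stands at 1224 and 1349 in ETO, against 4869 and 4679.9 in Control, while Ccnd2 is highest in ETO at 43.1 and 39.

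Origin licensing genes fell in ETO for 13 of 14, with changes between -1.73 and -0.23 and a median of -0.85. Cdc6, which loads the helicase together with the origin recognition complex, fell the most. The gene (chr11:98907801-98923940) had 257 and 291 normalised counts in ETO, 905 and 955 in Released and 907 and 909 in Control, a change of -1.73 (SE 0.0834, limma adjusted p = 1.39e-10), and Released and Control overlapped. Gmnn encodes geminin, the inhibitor of licensing. It had 298 and 266 in ETO, 654 and 647 in Released and 779 and 873 in Control, so the inhibitor fell with the loaders (-1.55, SE 0.116, limma adjusted p = 1.82e-08).

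All 6 genes of the Mcm2-7 helicase fell in ETO, within a narrow range of -1.12 for Mcm6 to -0.71 for Mcm2. Mcm6 had 2569.9 and 2546 normalised counts in ETO, 4970.5 and 4916 in Released and 5466 and 5630.4 in Control. Mcm3 had 3291 and 3309 in ETO, 6155 and 6258 in Released and 6850.0 and 6902 in Control, and both were called at limma adjusted p of 1.35e-10 and 1.04e-10. The Released libraries of both lay between ETO and Control, and their differences from Control, -0.17 and -0.15, were not called, although both were called in the fits without either WT replicate. Mcm2, at 3504 and 3782 in ETO, 5948 and 5984 in Released and 5984 and 5964 in Control, was the member of the complex with the smallest fall.

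Per length, the order of the helicase genes was the same in ETO and Control. In ETO the levels were 131 and 109 FPKM for Mcm2, 103 and 104 for Mcm3, 83.4 and 91.1 for Mcm5, 67 and 71.2 for Mcm6, 52.8 and 54.9 for Mcm7 and 49.9 and 52.7 for Mcm4. In Control they were 212 and 229.7 FPKM for Mcm2, 199 and 212 for Mcm3, 166 and 162 for Mcm5, 146 and 149 for Mcm6, 106 and 103 for Mcm7 and 94 and 89 for Mcm4. In ETO neither Mcm2 and Mcm3 nor Mcm7 and Mcm4 differed by more than the spread of their libraries, and in Control Mcm2 and Mcm3 did not either.

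In KO the helicase genes differed little from WT. Mcm2 had 7253 and 7001 normalised counts in KO and 6239.6 and 6062 in WT, a rise of 0.21 (SE 0.0545, limma adjusted p = 0.00643) whose sign turned on FPKM values (-0.04, adjusted p = 0.885). That call was also lost with each of the 3 other scalings and without KO replicate 1 (0.19, adjusted p = 0.0537). Mcm3 to Mcm7 changed by -0.01 to 0.09 and were not called, although scaling to total signal called Mcm3 (-0.16) and Mcm4 (-0.17) lower.

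The origin recognition genes Orc1 to Orc6 changed by -0.87 to -0.23 in ETO, with 5 of 6 called and a median of -0.52, beside a median of -0.955 for Mcm2-7. Orc1, the largest subunit (chr4:108579423-108614833), had 838 and 782 normalised counts in ETO, 1584 and 1568 in Released and 1458 and 1511 in Control (-0.87, SE 0.082, limma adjusted p = 2.15e-07). Orc4 had 769 and 694 in ETO, 788 and 976 in Released and 886 and 825 in Control, a change of -0.23 (SE 0.125, limma adjusted p = 0.132) whose groups did not overlap but which did not pass the test. Orc2 and Orc5 changed by -0.31 and -0.44. The Orc2 fall was not called on total signal (adjusted p = 0.0503) or FPKM values (adjusted p = 0.0643).

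In KO 4 of the 6 Orc genes rose and 1 fell, beside 24.6% and 13.3% of all tested features. Orc1 had 919 and 994 normalised counts in KO and 539.7 and 628 in WT, a rise of 0.71 (SE 0.082, limma adjusted p = 1.32e-05) with no overlap of the groups. Orc2, Orc4 and Orc6 rose by 0.32, 0.41 and 0.28. The Orc4 and Orc6 calls were lost without KO replicate 2 (adjusted p 0.14 and 0.0857) or WT replicate 1 (adjusted p 0.175 and 0.065), and the Orc2 call on total signal (adjusted p = 0.0831) and FPKM values (adjusted p = 0.0936). Orc3 fell by 0.26, a call lost without KO replicate 1 (-0.16, adjusted p = 0.301), WT replicate 2 (-0.18, adjusted p = 0.217) or any Released or Control library (adjusted p 0.063 to 0.0653). Orc5 changed by 0.10 and was not called. The licensing genes summed to 47360 and 47750 normalised counts in KO and to 44620 and 44990 in WT. As a share of the library total, which was larger in KO, the direction was the other way, at 0.359% ± 0.00106 in KO and 0.379% ± 0.00205 in WT (SD, n = 2 each).

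**Figure D3:**
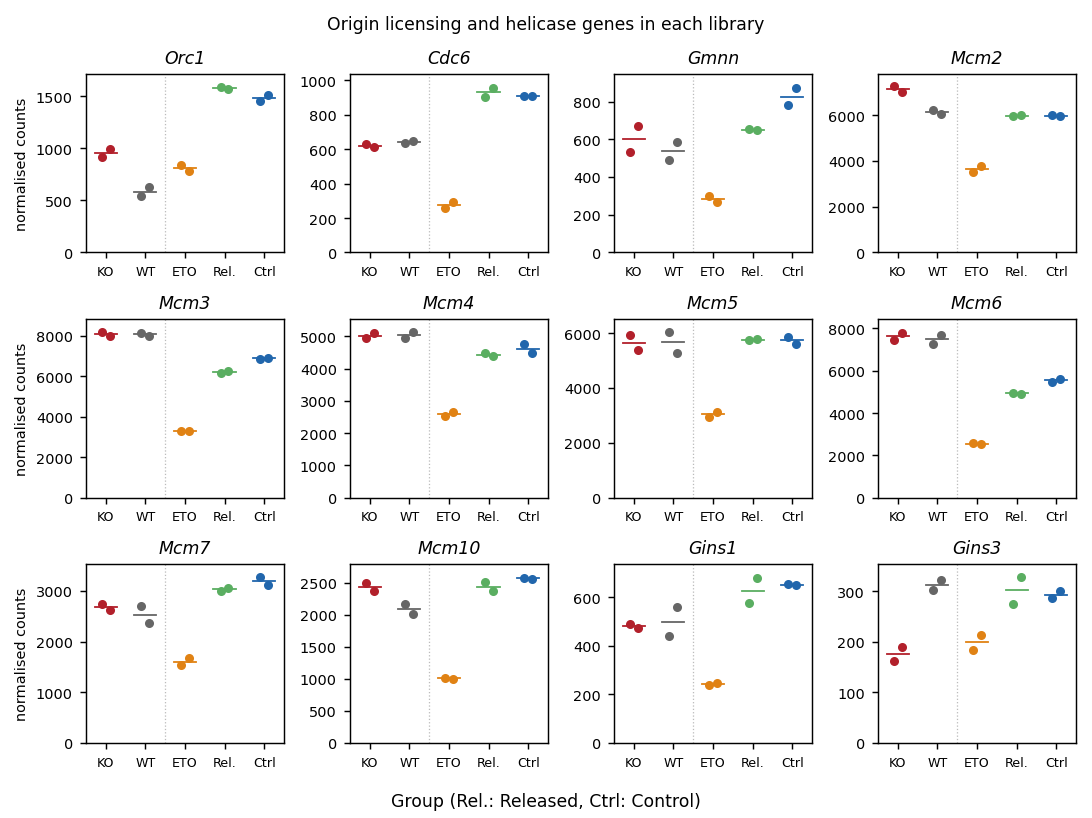
Normalised counts of 12 origin licensing and helicase genes in each library, with group means as lines and groups in the order KO, WT, ETO, Released and Control. Each panel has its own vertical axis from 0. Cdc6 stands at 257 and 291 in ETO, against 907 and 909 in Control, and Orc1 at 919 and 994 in KO, against 539.7 and 628 in WT.

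The 5 genes that activate the helicase all fell in ETO. Mcm10, needed for origin firing, had 1016 and 1007 normalised counts in ETO, 2516 and 2369 in Released and 2583 and 2560.4 in Control (-1.35, SE 0.0639, limma adjusted p = 1.18e-10). Cdc45, which joins the helicase, changed by -0.84, and the GINS subunits Gins1, Gins3 and Gins4 by -1.41, -0.56 and -0.78. Gins3 also fell in KO. It had 161 and 189.8 in KO and 302 and 321 in WT (-0.83, SE 0.129, limma adjusted p = 0.000164), and 184 and 213 in ETO, 275 and 328 in Released and 286 and 299.9 in Control. The difference between its KO and ETO changes did not pass the threshold (-0.26, 95% interval -0.65 to 0.12, limma adjusted p = 0.236), but passed it with median-of-ratios factors or total signal. The other GINS genes did not pass the test in KO, at -0.04 for Gins1 and -0.01 for Gins4.

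Of the 10 polymerase genes, 8 fell in ETO, 1 rose (Pold4) and 1 was not called (Prim2). The primase and polymerase alpha complex begins each new strand. Within it Prim1, the catalytic primase subunit, had 511 and 426 normalised counts in ETO, 1097 and 1118 in Released and 1351 and 1306 in Control (-1.51, SE 0.102, limma adjusted p = 5.75e-09). Prim2, the larger primase subunit, had 1251 and 1179.8 in ETO, 1115 and 1153 in Released and 1161 and 1034 in Control, so that its ETO libraries were the highest of the 3 groups (0.15, SE 0.083, limma adjusted p = 0.134). The Prim2 change was called as higher with any of the 3 other scalings and in the fit of each experiment alone.

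Pola1 and Pola2, the catalytic and accessory subunits of polymerase alpha, fell by 0.96 and 0.69 in ETO and were the polymerase genes still called lower after release. Pola2 had 910.3 and 969 normalised counts in ETO, 1235 and 1241 in Released and 1525 and 1514 in Control, a change of -0.29 between Released and Control (SE 0.0664, limma adjusted p = 0.00868). Pola1 had 945 and 1025 in ETO, 1574 and 1604 in Released and 1944 and 1899 in Control, at -0.27 for Released against Control (limma adjusted p = 0.0323). Released lay between ETO and Control for both genes, with no overlap. Both Released calls were lost on leaving out any of the 4 Released or Control libraries, at adjusted p of 0.0662 to 0.184.

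Polymerase delta, which copies mostly the lagging strand, and polymerase epsilon, which copies mostly the leading strand, moved alike apart from Pold4. Changes in ETO were -0.62 for Pold1, -0.86 for Pold2, -0.66 for Pold3, -0.69 for Pole and -0.65 for the row that holds Pole2. Pole, the catalytic epsilon subunit, had 1373 and 1381 normalised counts in ETO, 2240.1 and 2264 in Released and 2220.2 and 2224 in Control. After release none of these 5 was called against Control.

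Pold4, the smallest subunit of polymerase delta, rose in ETO where the other called polymerase genes fell, and had the largest fall of any member in KO. The gene (chr19:4231899-4233634) had 136 and 115 normalised counts in ETO, 53 and 56.2 in Released and 45.1 and 45.7 in Control, a rise of 1.44 in ETO (SE 0.19, limma adjusted p = 8.4e-06). In KO it had 29.6 and 30.1, against 170.3 and 142 in WT, a fall of 2.34 (SE 0.19, limma adjusted p = 6.92e-07). The groups did not overlap in either comparison, and both calls held under all 20 alternatives. The difference between its KO and ETO changes was -3.79 (SE 0.268, limma adjusted p = 2.59e-08). Per length its group means were the lowest of the polymerase genes, although in ETO its libraries overlapped those of Pola1, and it stood at 2.8 and 2.85 FPKM in KO, 16.1 and 13.5 in WT, 12.9 and 10.8 in ETO, 5.02 and 5.32 in Released and 4.27 and 4.32 in Control. Its exons overlap those of AC109138.7, a protein-coding gene on the same strand, so the reads of these genes cannot be told apart.

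**Figure D4:**
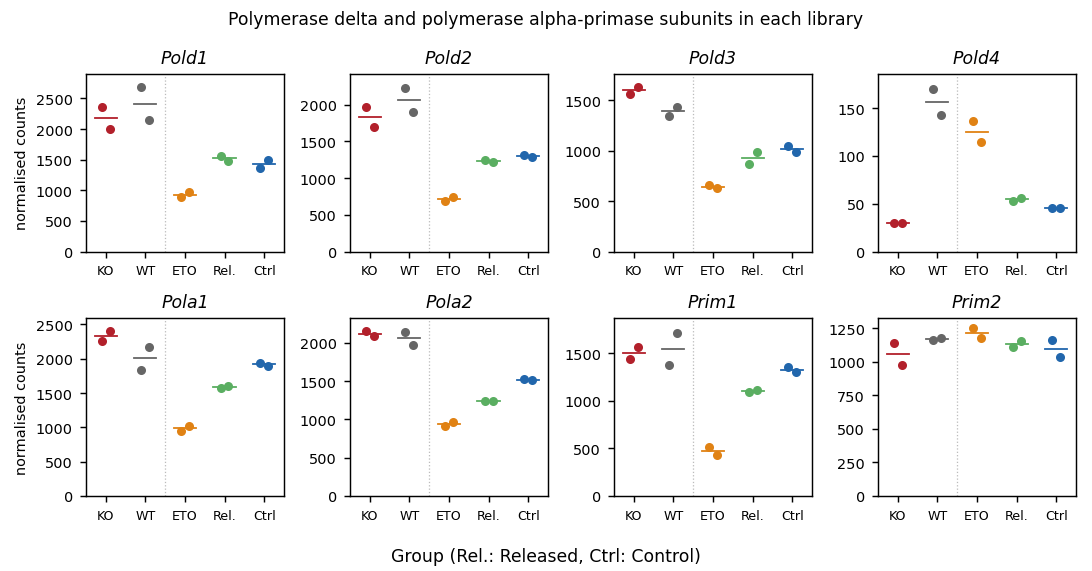
Normalised counts of the 8 polymerase delta and polymerase alpha-primase genes in each library, with group means as lines and groups in the order KO, WT, ETO, Released and Control. Each panel has its own vertical axis from 0. Pold4 is lowest in KO at 29.6 and 30.1, against 170.3 and 142 in WT, and stands at 136 and 115 in ETO, against 45.1 and 45.7 in Control.

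The sliding clamp gene Pcna had 791 and 844 normalised counts in ETO, 1584 and 1427 in Released and 1687 and 1748 in Control, a change of -1.07 (SE 0.0713, limma adjusted p = 4.68e-09). Its 5 loader genes fell as well, by 0.48 for Rfc1 to 1.09 for Rfc5. In KO the loader split: Rfc4 rose, with 1765 and 1811 against 1164 and 1295 in WT (0.54, SE 0.0789, limma adjusted p = 9.43e-05), and Rfc1, the large subunit, fell, with 2961 and 3057 against 3437 and 3748 in WT (-0.26, SE 0.0622, limma adjusted p = 0.00468). The Rfc4 rise was not called on FPKM values (0.20, adjusted p = 0.257). Rfc2 also fell in KO, by 0.25, a call lost without KO replicate 2 (-0.21, adjusted p = 0.112) or WT replicate 1 (-0.20, adjusted p = 0.0823). Rfc3 and Rfc5 were not called there.

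All 7 genes of the last role fell in ETO, with a median of -0.80. Lig1, the ligase that joins Okazaki fragments, had 1641 and 1846 normalised counts in ETO, 3809 and 3854 in Released and 3813 and 3892 in Control (-1.15, SE 0.0623, limma adjusted p = 5.05e-10). Fen1, the flap nuclease that trims them, changed by -0.50, and its Released libraries, 1681 and 1622, lay above the Control libraries, 1501 and 1448, without a call (0.16, limma adjusted p = 0.176). The single-strand binding genes Rpa1 (main row), Rpa2 and Rpa3 changed by -0.52, -0.67 and -0.80 in ETO, and the chromatin assembly genes Chaf1a and Chaf1b by -0.81 and -1.08. The smaller row that names Rpa1 alone fell more in proportion, with 140 and 104 normalised counts in ETO and 360 and 389 in Control. Of these 7, Chaf1b alone was called in KO (0.19, limma adjusted p = 0.0393), and that call was lost under 14 of the 20 alternatives, among them leaving out WT replicate 1 or any KO, Released or Control library (adjusted p 0.0579 to 0.174).

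**Figure D5:**
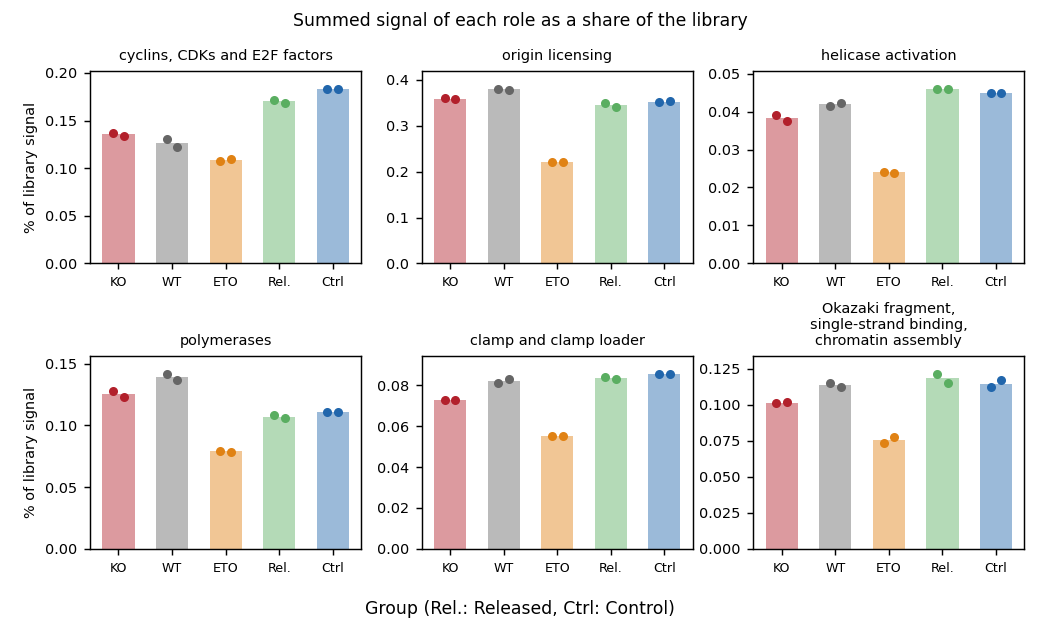
Summed normalised counts of each role as a percentage of the library total, bars at the group mean of 2 libraries and points for single libraries, in the order KO, WT, ETO, Released and Control. Origin licensing genes hold 0.221% in ETO, 0.345% in Released and 0.353% in Control, and polymerase genes hold 0.079% in ETO, 0.107% in Released and 0.111% in Control.

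The KO and ETO changes were compared directly, as the KO change minus the ETO change. This difference was called higher for 49 members and lower for 2 (Pold4 and Prim2), beside 54.5% of all tested features called, 32.3% as higher and 22.2% as lower. The Prim2 difference, -0.30 (limma adjusted p = 0.0418), lost its call under 10 of 19 alternatives, among them leaving out KO replicate 2, WT replicate 2, Control replicate 2 or any ETO or Released library (adjusted p 0.0504 to 0.195). For Ccnd1 the difference was 2.44 (SE 0.0925, limma adjusted p = 1.18e-10), for Mcm10 1.56 and for Rfc4 1.59. Of the 16 members called higher in KO, 14 were among the 49 called lower in ETO. This is near the share of all 53 members called lower in ETO, 92.5%. The share of all tested features with both calls was not counted. Of these 14, Ccnd1, Cdk4, E2f3 and Orc1 kept both calls under all 20 alternatives. The KO rises of Ccne1, Cdk2, Mcm2, Mcm10, Pola1 and Chaf1b lost their calls under all 3 other scalings, and the KO change of Mcm2 was -0.04 on FPKM values. Gins3 was called lower in both. Cdk6, Orc3, Rfc1 and Rfc2 were called lower in both too, with a difference of 1.60 for Cdk6 and 0.62 for Rfc2. The Orc3 difference of 0.35 and the Rfc1 difference of 0.23 lost their calls under most alternatives, and that of Rfc1 turned sign on total signal (-0.08) and FPKM values (-0.11).

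Levels also differed between WT and Control, the reference groups of the lines. Ccnd1 had 1431 and 1483 normalised counts in WT and 4869 and 4679.9 in Control, Fen1 had 795 and 722 in WT and 1501 and 1448 in Control, and Pold4 had 170.3 and 142 in WT and 45.1 and 45.7 in Control. The line and the experiment cannot be told apart here.

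Related genes that are no members, from lists chosen with earlier results of these data known, moved in ETO as follows. Over all tested features 26.8% were called higher and 34% lower in ETO, 24.6% and 13.3% in KO, and 7.03% and 5.51% in Released against Control. Of 33 other replication factors, 26 fell and 2 rose, with a median change of -0.68. In KO 13 of them rose and 3 fell, and Released against Control called 1 higher and 7 lower. Pclaf, a clamp-binding protein, had 30.6 and 38.2 normalised counts in ETO, 142 and 151 in Released and 299 and 282 in Control (-3.05, limma adjusted p = 1.05e-10). It was still lower after release (-0.98, limma adjusted p = 0.000416) and fell in KO too, at 256 and 264 against 429 and 525 in WT (-0.87, limma adjusted p = 0.000262). Of 10 nucleotide supply genes 9 fell in ETO and 1 rose (median -1.14), with Rrm2, a subunit of ribonucleotide reductase, at 1427 and 1375 in ETO, 3044 and 3041 in Released and 3388 and 3375 in Control. Of 16 S phase and G2 cyclins and CDK activators 14 fell in ETO and 1 rose (median -1.13), with Ccnb2, a mitotic cyclin, at 409 and 438 in ETO, 1432 and 1377 in Released and 1504 and 1515 in Control. In KO 4 of the nucleotide supply genes rose and none fell by limma (6 and 0 at an unadjusted p under 0.05, not counted over all features). Of the cyclin list, 6 rose and 3 fell in KO.

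The Rb family, its E2F partners and the CDK inhibitors moved in both directions. Rb1, encoding the retinoblastoma protein, rose in ETO, with 520.2 and 508 normalised counts against 180.3 and 180.5 in Released and 132 and 115 in Control (2.05, limma adjusted p = 4.17e-09). It rose in KO also, at 629 and 674 against 329 and 457 in WT (0.75, limma adjusted p = 0.000563). Of the 10 genes of the Rb family and E2F partners, 7 fell in ETO and 2 rose (median -0.38), with E2f8, a repressive E2F, changing by -1.98. Of 7 CDK inhibitor genes, 4 rose in ETO and 2 fell (median 0.23), beside 26.8% and 34% of all tested features. Among those that rose was Cdkn2b with 242 and 272 in ETO, 113 and 101 in Released and 63.8 and 76.8 in Control (1.86, limma adjusted p = 5.24e-08). Cdkn1a, encoding p21, rose by 0.70 in ETO.

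Markers of other cell types and of the stem cell state moved with the ETO group. In bulk RNA, fewer cells of a type and less RNA per cell cannot be told apart. The 11 embryonic stem cell markers all fell in ETO, with summed levels of 41786.8 to 43904.8 normalised counts in ETO, 70494.4 to 70651 in Released and 69166.5 to 69216.9 in Control. Of 7 tested trophectoderm markers, out of 9 listed, 6 rose and 1 fell, with sums of 6451.51 to 6848.89 in ETO, 1587.84 to 1667.85 in Released and 1086.72 to 1094.85 in Control. Krt18 had 2501 and 2618 in ETO, 214 and 207 in Released and 29.7 and 44.6 in Control, whereas Cdx2, a defining marker, had 5.93 and 7.47 in ETO, 55.8 and 43.4 in Released and 61.6 and 35.3 in Control. No trophectoderm marker was at 0 in both ETO libraries, and Hand1 was at or under the 3-read level there. Of 6 tested primitive endoderm markers, out of 8, 3 rose and 1 fell, with sums of 1545.91 to 1892.22 in ETO, 2319.98 to 2330.66 in Released and 1889.94 to 1948.34 in Control, and Sox7 was at or under the 3-read level in ETO. Sums of the 8 fibroblast markers were 202.629 to 206.741 in ETO, 133.582 to 145.3 in Released and 127.688 to 131.808 in Control, with Col3a1 at 0 in ETO, and of the 4 tested 1 rose and 1 fell. Mitochondrial rows held 0.761% and 0.588% of the signal in ETO, 1.71% and 3.71% in Released and 3.39% and 3.34% in Control. The 1.71% of Released replicate 1 lacks 2 mitochondrial rows that are listed at 0 in that library. The part of these marker and mitochondrial shifts in the fall of the members was not tested.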

How the data were processed

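RNA-seq libraries made with the Illumina TruSeq kit were read single-end, per the labels' protocols. Per the submitters' processing notes, TopHat2 2.1.1, SAMtools 1.5, deepTools and the mm10 build were used, while the counting program is not given in the sources used here. The authors deposited a table of gene signal, here called normalised counts: tests of its low values showed read counts divided by 1 factor per library, with 88.5% to 89.9% of low values whole reads within 0.1 read, so no count model was fitted. The table of FPKM values, as deposited, served for levels per length and as an alternative. The 50273 rows of normalised counts were summed by name to 49624 features, and 2 mitochondrial rows listed at 0 in Released replicate 1 were left out of the fit.

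Features with at least 10 in at least 2 libraries (16056) were fitted as log2(value + 1) with limma 3.58.1 in R 4.3.3, with 1 mean per group over all 10 libraries and trended, robust moderation, which was also tested on simulated data. Tests are two-sided, and p-values were adjusted by Benjamini-Hochberg over all tested features of a comparison. The series calls replicates biological duplicates without naming separate cultures, so p-values measure the spread between these libraries. Alternatives changed the scaling (median of ratios, TMM, total signal without mitochondrial rows), pseudocount, filter, FPKM values, fit per experiment, replicate block, moderation, fold threshold and libraries left out. All 53 members analysed are named, with values per library for those of smallest adjusted p or against their group. The members and gene lists were chosen with earlier results of these data known. Coordinates are GENCODE M21 and RefSeq GRCm38.p6. Tables used Python 3.11.15, numpy 2.4.6, pandas 2.3.3 and matplotlib 3.10.9.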

Additional observations from a re-analysis of the deposited data

How the results depend on the processing

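The main pattern, 49 members lower in ETO and 49 higher in Released than in ETO, stayed within 1.5 times under every alternative run, and 45 of the 49 members called in each were called in all 20 alternatives other than the fold threshold. The count higher in KO against WT (16) was 10 with median-of-ratios or TMM factors, 7 with total signal (mitochondrial rows left out), 8 on FPKM values, 9 in the fit per experiment, 10 without trend and 4 with a 1.5-fold threshold. The count lower there (6) was 10, 10 and 16 with the 3 scalings, 3 in the fit per experiment and without trend, and 2 with the fold threshold. The count higher in ETO (2) was 1 on FPKM values, 1 without trend and 1 to 2 on leaving out a library. The count lower in Released against ETO (1) was 2 with median-of-ratios or TMM factors, pseudocount 5 or the fit per experiment, 3 with total signal and 1 to 2 on leaving out a library. For Released against Control, lower members (3) numbered 0 on FPKM values, without trend and with the fold threshold, 13 in the fit per experiment (2 higher there) and 0 to 10 on leaving out a library. They were 10 without either WT replicate and 0 without any Released or Control library. Members lower in the KO change minus the ETO change (2) were 1 without a filter, on FPKM values, without trend and with the fold threshold, and 1 to 2 on leaving out a library. The fit per experiment could not be fitted to that difference. The KO change of Mcm2 reversed on FPKM values (-0.0367), that of Mcm3 on total signal (-0.159), and the Rfc1 difference on total signal (-0.083) and FPKM values (-0.114). The cause was not tested. Summing both Rpa1 rows, chosen after seeing the data, changed no count.

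Same-numbered replicates did not deviate together across genes as a whole (correlations of -0.0181 to 0.0813). Such a correlation cannot decide whether they share a culture or batch that acts on some genes. With the replicate block, Released against Control called 12 members lower in place of 3, Released against ETO 2 lower in place of 1, and 20 higher and 8 lower in KO.

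Over all features, FPKM values called 2959 in KO against WT in place of 6086. Released against Control called 348 on FPKM values, 3713 in the fit per experiment, 3110 with the block and 1171 without trend, in place of 2012. Total signal made 55.6% of the ETO calls higher in place of 44.1% and 67.1% of those of Released against Control in place of 56.1%. Calls on the difference were 59.3% higher as deposited, 46.6% with median-of-ratios, 48.1% with TMM factors and 37.5% with total signal, which shifted its median by -0.31. With 2 libraries per group, small changes of low genes such as Ccnd2 are the least certain.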
